A study of Mus musculus with 4 samples.

Results

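Of 28 genes of cholesterol synthesis, uptake and their control by SREBP2, none passed the test between small intestine of mice without the Cyp3a gene cluster and of wild-type mice. The difference, knockout minus wild type, ran from -0.30 for Insig1 to 0.69 for Soat2 on the log2 scale, and 26 of the 28 differed by less than 0.3 either way. The median size of the difference was 0.14 for the members and 0.17 for all genes tested. Both knockout arrays read above both wild-type arrays for Hmgcs1, Idi1 and Srebf2, and both read below for Insig1. These were 10.7% and 3.57% of the members, near the 8.66% and 6.09% of all genes tested. Of all genes tested, 0.0417% passed the test. The largest difference, that of Soat2, came from a single knockout array. The genes were taken by name, with earlier results of these data known. They were 7 enzymes of the mevalonate arm, 11 enzymes of the squalene and sterol arm, 4 genes of SREBP2 control, and 6 genes of sterol uptake, esterification and transport. All 28 had a probe, among 21153 gene symbols with a probe on the array, and all 28 were among the 14395 genes tested.

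The study compared gut RNA of Cyp3a-/- mice with that of wild type mice, both from small intestine, with 2 one-colour Agilent arrays a genotype. The Cyp3a genes code for cytochrome P450 enzymes that oxidise drugs, steroids and bile acids in liver and gut. The submitters describe separate experiments on different animals for the arrays of a genotype. The strain, sex and age of the mice, the segment of the gut and the number of mice per array are not given in the sources used here. No treatment is named for either genotype, and the labels name no promoter or Cre line. The arrays are called wild type 1 and 2 and knockout 1 and 2, as in the labels. The p-values measure the spread between these 4 arrays only.

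Cells make cholesterol from acetyl-CoA. The mevalonate arm builds isoprenoid units, squalene synthase joins them into squalene, and the sterol arm closes the rings and trims the product to cholesterol. The transcription factor SREBP2, the product of Srebf2, raises most of these genes: when membranes are poor in sterol, SCAP carries SREBP2 to the Golgi for cleavage, and when sterol is plentiful the INSIG proteins hold SCAP in the endoplasmic reticulum. In the small intestine, NPC1L1 takes up cholesterol from the lumen at the brush border of enterocytes, and SOAT2 esterifies it for packing into chylomicrons.

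The sequences just before the start sites of Hmgcs1, Idi1, Insig1 and Srebf2 are shown because these are the members whose genotypes did not overlap. They are RefSeq sequences on GRCm38.p6, the 250 bases before the start of each gene, written 5′ to 3′ on the gene's own strand. Capitals mark each match to the sterol regulatory element TCACNCCAC and to the NF-Y box CCAAT, which reads ATTGG when it lies on the opposite strand.
Hmgcs1, chr13:119690101-119690350, plus strand: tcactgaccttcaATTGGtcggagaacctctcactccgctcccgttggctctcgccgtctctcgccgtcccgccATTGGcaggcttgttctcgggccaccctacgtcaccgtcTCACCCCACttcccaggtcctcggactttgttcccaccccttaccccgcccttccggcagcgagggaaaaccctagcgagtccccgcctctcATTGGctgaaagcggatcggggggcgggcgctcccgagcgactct
Idi1, chr13:8885356-8885605, plus strand: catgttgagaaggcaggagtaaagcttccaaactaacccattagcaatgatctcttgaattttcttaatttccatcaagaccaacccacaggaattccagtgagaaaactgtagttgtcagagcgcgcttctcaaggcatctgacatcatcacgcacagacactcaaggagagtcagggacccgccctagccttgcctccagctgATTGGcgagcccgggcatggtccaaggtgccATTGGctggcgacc
Insig1, chr5:28071162-28071411, plus strand: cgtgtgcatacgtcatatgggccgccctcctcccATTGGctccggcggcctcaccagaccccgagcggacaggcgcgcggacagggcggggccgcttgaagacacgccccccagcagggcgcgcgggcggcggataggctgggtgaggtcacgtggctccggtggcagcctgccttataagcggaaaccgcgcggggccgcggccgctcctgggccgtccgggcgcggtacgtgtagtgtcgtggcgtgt
Srebf2, chr15:82147019-82147268, plus strand: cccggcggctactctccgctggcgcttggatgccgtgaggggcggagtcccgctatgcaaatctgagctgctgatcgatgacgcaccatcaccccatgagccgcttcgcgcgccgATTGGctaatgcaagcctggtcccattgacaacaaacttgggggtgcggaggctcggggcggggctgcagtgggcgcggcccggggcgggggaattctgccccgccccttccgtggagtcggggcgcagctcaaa
Only the Hmgcs1 sequence holds a sterol regulatory element in this spelling, TCACCCCAC, whose first base is 137 bases before the start. Windows of 300 bases, 250 before and 50 after the start, were listed for 22 of the 28 members, 28 windows in all. On either strand, the sterol regulatory element was in 1 of the 28 windows (3.57%), against 1.24% of all 32851 promoter windows. The NF-Y box was in 20 windows (71.4%), against 37.4% of all windows, and was missing in Acat2 and Scap. The GC box GGGCGG, the letters bound by Sp1, was in 23 windows (82.1%), against 35.7% of all windows, and was missing in Pmvk and Npc1l1. These are matches of letters, and some members have more than 1 window.

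Each array held 43020 spots outside the controls, of which 55.1% to 64.4% of probes were well above background, and no spot was saturated. For 6 genes of the Cyp3a cluster, checked by name, all 6 were called lower in the knockout. None of the 6 stood well above background in knockout 1 or knockout 2. Other Cyp3a genes were not part of this check. No other gene passed limma's test at an adjusted p of 0.05, so 0.0417% of the 14395 genes were called. Wild type 2 and knockout 1 shared a slide, and wild type 1 and knockout 2 each lay on a slide of their own. Knockout 1 stood apart: over all genes it correlated at 0.962 to 0.966 with the wild-type arrays and at 0.948 with knockout 2, against 0.979 for the wild-type pair. The 12 enterocyte markers, all well above background on all 4 arrays, showed that the tissue held gut epithelium. All 8 smooth muscle markers and all 6 fibroblast markers were well above background on all 4 arrays too. The summed level of the enterocyte markers was 9.85 and 9.24 in wild type 1 and 2, 10.22 in knockout 1 and 9.44 in knockout 2 on the log2 scale. Knockout 1 was above the wild-type mean for 12 of 12 enterocyte markers, by a median of 1.02, and for 0 of 8 smooth muscle markers, with a median of -0.94. Knockout 2 was above it for 3 of 12 and 7 of 8, with medians of -0.35 and 0.68, though this smooth muscle median was 0.51 under normexp background correction with quantile normalization and -0.69 under normexp with 75th percentile scaling. The wild-type arrays also differed from each other: wild type 2 minus wild type 1 had a median of 4.61 for the 4 stomach markers and -5.94 for 5 liver markers. Only 2 of these stomach markers and 2 of these liver markers were well above background on all 4 arrays. The size of these gaps thus rests in part on values near background. The stomach markers had medians of -5.34 in knockout 1 and 3.12 in knockout 2 against the wild-type mean, and the liver markers -2.06 and -0.38. In such bulk tissue, fewer cells of a type and less RNA per cell cannot be told apart.

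Levels are log2 signals relative to each array's 75th percentile, and a difference is the knockout mean minus the wild-type mean, n = 2 arrays a genotype. Genotypes that do not overlap were common: of all genes tested, 8.66% had the knockout pair wholly higher than the wild-type pair and 6.09% had it wholly lower. Among the members the counts were 3 higher (10.7%) and 1 lower (3.57%), near those shares. Limma called 0 of the 28, with adjusted p = 1.00 for each, and 0 of the 28 had an unadjusted p under 0.05, against 63 of all genes. With 2 arrays against 2, an exact permutation test of a single gene cannot give a two-sided p below 0.333. The median difference of the members was 0.11, beside 0.04 over all genes, and its size was 0.14 at the median, under the median standard error of 0.32. Over all genes the median size was 0.17 and the median standard error 0.36. Within the shared slide the median was 0.048 for the members and 0.080 for all genes. The difference was positive for 21 of the 28, against 56.2% of all genes, but for 10 of 28 under normexp correction with 75th percentile scaling, where the median was -0.30 and 7747 of the 14395 genes were positive. Under normexp with quantile normalization it was positive for 19 of 28, with a median of 0.048, beside 7660 of all genes. It was positive for 24 of 28 under median scaling, beside 9352 of all genes, and for 18 of 28 under quantile normalization, beside 7542. The 95% interval lay between -1 and 1, a 2-fold change each way, for 21 members and reached past it for 7, and 0 intervals excluded 0. For 17 of the 28 members the gap between the wild-type arrays exceeded the difference between genotypes, as it did for 9776 of the 14395 genes.

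**Figure D1:**
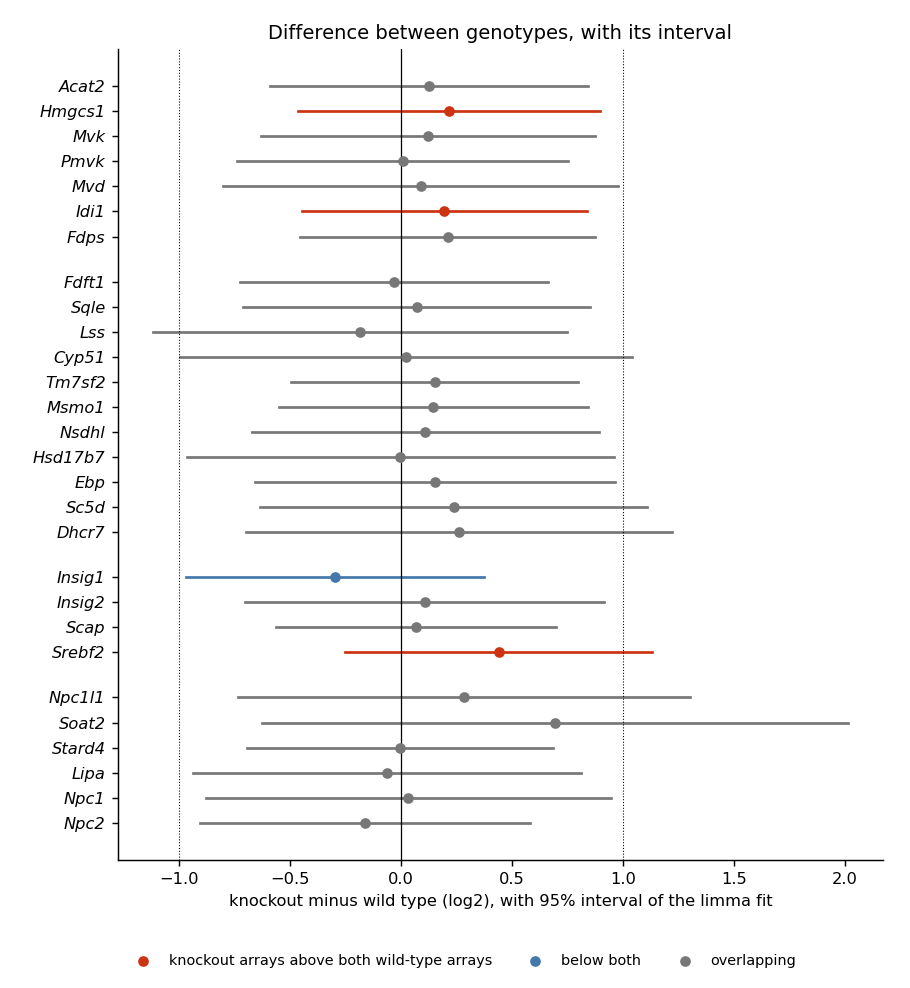
The plot of intervals by member gives the log2 difference, knockout minus wild type, on the x axis, with a point for limma's estimate and a bar for its 95% interval, grouped by role and coloured where genotypes did not overlap. Dotted lines mark -1 and 1. Every bar crosses 0, and the bar of Soat2 is the widest, from -0.63 to 2.01.

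The 7 genes of the mevalonate arm all had a positive difference, from 0.01 for Pmvk to 0.21 for Hmgcs1, with a median of 0.13. Under normexp with quantile normalization 6 of 7 were positive, and under normexp with 75th percentile scaling 2 of 7. Hmgcs1 codes for the cytosolic synthase that makes HMG-CoA. Its level was 3.65 in wild type 1, 3.65 in wild type 2, 3.72 in knockout 1 and 4.01 in knockout 2. Both knockout arrays were higher, knockout 1 by little. The difference was 0.21 (SE 0.28, limma adjusted p = 1.00), and the 95% interval ran from -0.47 to 0.89. Within the shared slide, knockout 1 minus wild type 2 was 0.07.

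Idi1 codes for the isomerase that interconverts the isoprenoid building blocks. Its level was 2.07 and 2.13 in wild type 1 and 2, 2.41 in knockout 1 and 2.18 in knockout 2. Here it was knockout 1 that stood higher, while knockout 2 was close to wild type 2. The difference was 0.19 (SE 0.26, limma adjusted p = 1.00), and it was 0.28 within the shared slide. The genotypes of Hmgcs1 and Idi1 overlapped, however, in 3 of 11 other settings, those with normexp or quantile normalization. Of the rest, only median scaling changed the scaling of the arrays, and there they stayed apart.

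Fdps, which makes farnesyl diphosphate, the branch point to sterols and to protein prenylation, read 2.27 and 2.51 in wild type 1 and 2 against 2.48 and 2.72 in knockout 1 and 2. The genotypes overlapped, since knockout 1 lay below wild type 2. The difference was 0.21 (SE 0.27), and the within-slide value was -0.03. The remaining differences were 0.13 for Acat2, the cytosolic thiolase at the head of the pathway, 0.12 for the mevalonate kinase Mvk, and 0.09 for the decarboxylase Mvd. Pmvk, the phosphomevalonate kinase, differed by 0.01. Knockout 2 was above the wild-type mean for 6 of the 7 genes and had the highest level of the 4 arrays for 5, with a median of 0.33 against 0.07 for knockout 1. Over all genes, 55.1% were above the wild-type mean in knockout 2, and it was the highest array for 4127 of 14395. The median of the arm in knockout 2 was 0.31 under normexp with quantile normalization and -0.85 under normexp with 75th percentile scaling.

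**Figure D2:**
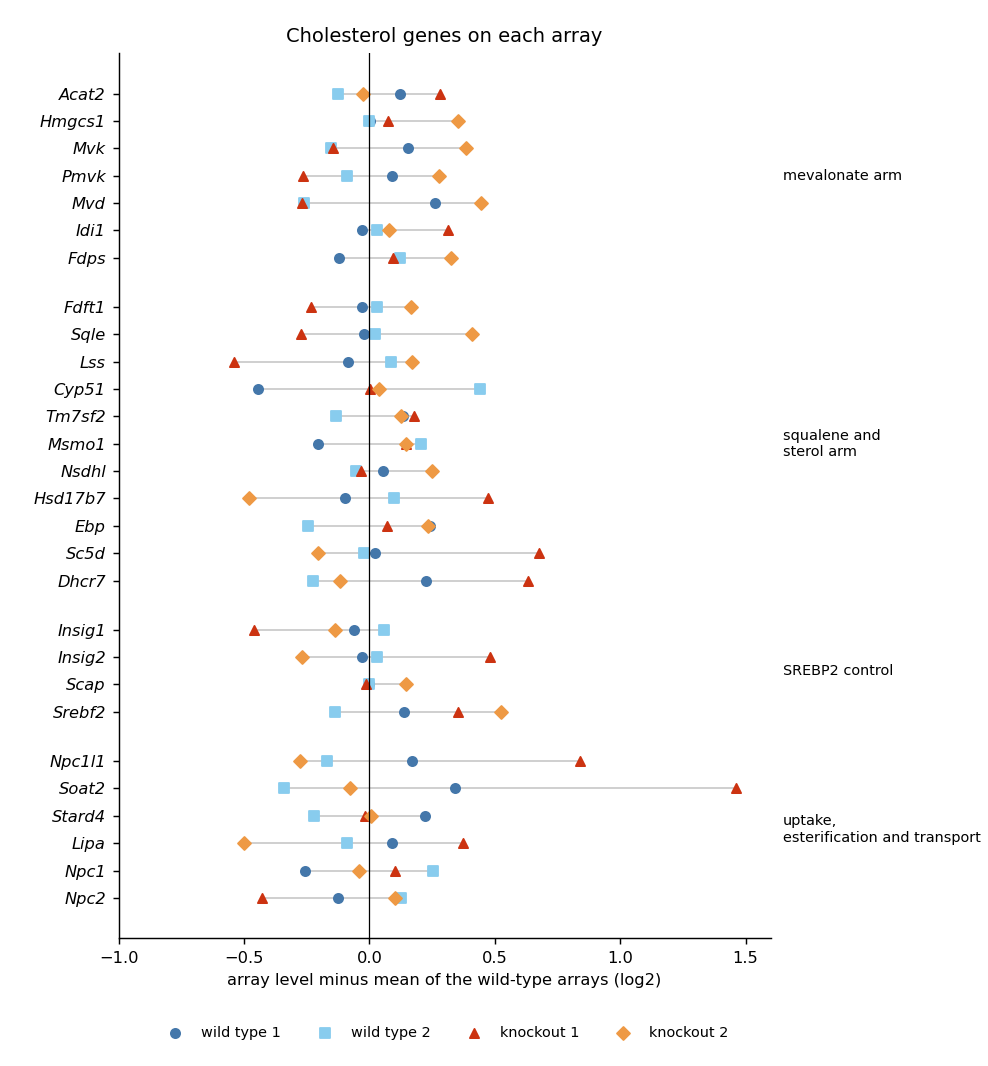
The plot of levels by array gives each member's log2 level on each of the 4 arrays minus the mean of the wild-type arrays, on the x axis, with a marker and colour for each array, grouped by role. Knockout 1 reaches farthest from the other arrays for Soat2, and some points of wild type 1 lie under those of wild type 2, as for Hmgcs1.

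In the squalene and sterol arm no gene had genotypes that stood apart, and 8 of 11 differences were positive, with a median of 0.11, against 8 of 11 with a median of 0.047 under normexp with quantile normalization and 5 of 11 with a median of -0.11 under normexp with 75th percentile scaling. Dhcr7, the reductase that makes cholesterol from 7-dehydrocholesterol, read -1.72 and -2.17 in wild type 1 and 2, -1.31 in knockout 1 and -2.06 in knockout 2. The difference was 0.26 (SE 0.39), with 0.63 for knockout 1 and -0.12 for knockout 2 against the wild-type mean. Knockout 1 was the highest array and knockout 2 lay between the wild-type arrays.

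Sc5d, the desaturase acting just before Dhcr7, was also highest on knockout 1. It read 2.32 and 2.28 in wild type 1 and 2, 2.97 in knockout 1 and 2.10 in knockout 2, a difference of 0.24 (SE 0.36). Lss, the cyclase that closes the first sterol ring system, went the other way on knockout 1. It read -2.24 and -2.07 in wild type 1 and 2, -2.69 in knockout 1 and -1.98 in knockout 2, a difference of -0.19 (SE 0.38). Within the shared slide these differences were 0.86 for Dhcr7, 0.70 for Sc5d and -0.63 for Lss, wider than the pooled ones, with 1 array on each side.

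The other 8 genes of the arm differed by -0.03 to 0.15. Tm7sf2 and Ebp, a sterol reductase and a sterol isomerase, each differed by 0.15, as did Msmo1, the methyl oxidase. Nsdhl, which removes the same methyl groups as carboxylates, differed by 0.11 and Sqle, the squalene epoxidase that is a rate-limiting step of the later pathway, by 0.07. The demethylase Cyp51 differed by 0.02, with wild-type levels of -2.96 and -2.08 lying on either side of both knockout levels. Hsd17b7, a sterol ketone reductase, differed by -0.0038, while its knockout levels, -0.48 and -1.44, lay on opposite sides of both wild-type levels, -1.06 and -0.86. Fdft1, squalene synthase, differed by -0.03. A small mean difference in this arm therefore covered knockout arrays that lay apart as well as ones that lay together.

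Among the 4 control genes, Srebf2 itself had the largest difference and Insig1 the only negative one. Srebf2 read -0.39 in wild type 1, -0.66 in wild type 2, -0.17 in knockout 1 and -0.0015 in knockout 2. Both knockout arrays were above both wild-type arrays. The difference was 0.44 (SE 0.28, limma unadjusted p = 0.172, adjusted p = 1.00), or 1.36-fold, with an interval from -0.25 to 1.13, and 0.49 within the shared slide. This was the smallest unadjusted p of the 28 members. A second Srebf2 probe differed by 0.11 with overlapping genotypes, and the mean of both probes was the 1 of 11 other settings in which the genotypes overlapped. Settings that changed only the filter, the variance model or the block could not bring overlap. The deposited table nearly repeated the main values. Leaving out any 1 array kept the difference between 0.30 and 0.58, and could not turn it, since the genotypes did not overlap.

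Insig1, which retains SCAP in the endoplasmic reticulum and is itself raised by SREBP2, read 0.68 and 0.80 in wild type 1 and 2, 0.28 in knockout 1 and 0.60 in knockout 2. Both knockout arrays were lower, knockout 1 by more. The difference was -0.30 (SE 0.28, limma unadjusted p = 0.32, adjusted p = 1.00), with an interval from -0.97 to 0.37, and -0.52 within the shared slide. The genotypes stayed apart in all 11 other settings, and the difference lay between -0.46 and -0.14 without any 1 array. Of those settings, only normexp, quantile normalization and median scaling could bring overlap for the gene's only probe. Leaving out 1 array could not turn the difference, since the genotypes did not overlap. Insig2, which holds SCAP likewise, read 1.20 and 1.26 in wild type 1 and 2, 1.71 in knockout 1 and 0.96 in knockout 2. Its knockout arrays lay on opposite sides of the wild-type arrays, and the difference was 0.10 (SE 0.33). Scap, the escort of SREBP2, differed by 0.07 (SE 0.26), with all 4 levels between 2.40 and 2.56.

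**Figure D3:**
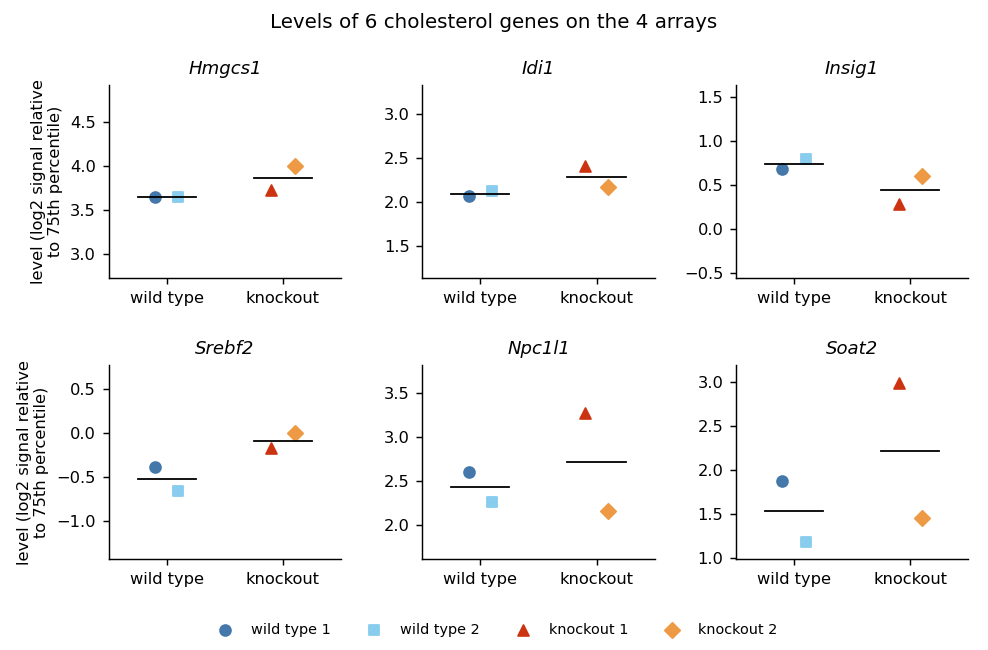
The plot of selected members gives the log2 level relative to the array's 75th percentile for each of the 4 arrays, for 6 members, with a line at the mean of each genotype. The knockout points of Srebf2 lie above and those of Insig1 below the wild-type points, while those of Soat2 lie at 2.99 and 1.46.

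Soat2 and Npc1l1, the genes of sterol esterification and uptake in enterocytes, differed more between the knockout arrays than between the genotypes. Soat2 read 1.87 and 1.19 in wild type 1 and 2, 2.99 in knockout 1 and 1.46 in knockout 2. The difference was 0.69 (SE 0.54, limma unadjusted p = 0.248, adjusted p = 1.00), or 1.62-fold, with an interval from -0.63 to 2.01. Against the wild-type mean, knockout 1 differed by 1.46 and knockout 2 by -0.08. Leaving out knockout 1 brought the difference to -0.08. Leaving out knockout 2 brought it to 1.46 with a limma adjusted p of 0.0394, the only call of a member under any setting run. That fit leaves a single knockout array, assumed to vary as the wild-type arrays do, and it called 433 genes.

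Npc1l1 read 2.59 and 2.26 in wild type 1 and 2, 3.27 in knockout 1 and 2.15 in knockout 2. Knockout 1 was again the highest array and knockout 2 the lowest. The difference was 0.28 (SE 0.42), and it was -0.27 without knockout 1 and 0.84 without knockout 2. Within the shared slide it was 1.01 for Npc1l1 and 1.80 for Soat2. On the same slide the 12 enterocyte markers differed by a median of 1.35 and the 8 smooth muscle markers by -1.04. The part of this tissue make-up in the values of Soat2 and Npc1l1 was not tested.

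Of the transport genes, Npc2, the lysosomal protein that hands cholesterol to NPC1, read 2.22 and 2.47 in wild type 1 and 2, 1.92 in knockout 1 and 2.45 in knockout 2. Only knockout 1 was below both wild-type arrays, and the difference was -0.16 (SE 0.31). Npc1, the lysosomal export protein, differed by 0.03 and Stard4, a cytosolic sterol carrier, by -0.0048. Lipa, the lysosomal acid lipase, differed by -0.06, with 0.37 for knockout 1 and -0.50 for knockout 2 against the wild-type mean. Over these 6 genes the median was 0.24 for knockout 1 and -0.06 for knockout 2.

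**Figure D4:**
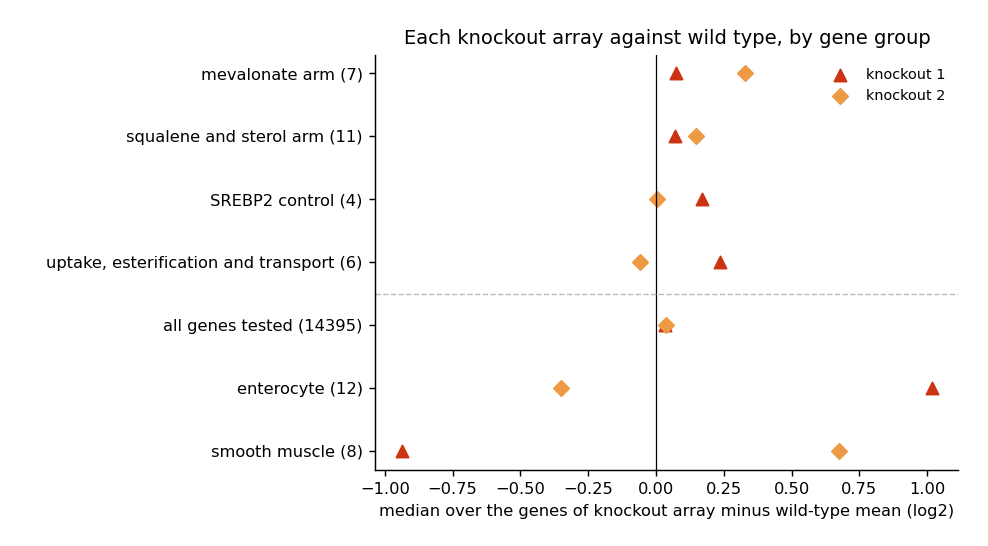
The plot of role groups gives each knockout array's log2 difference from the wild-type mean, as the median over the genes of a group, on the x axis, with a marker for each knockout array, for the role groups, all genes tested and both marker lists. The median of the mevalonate arm is 0.07 for knockout 1 and 0.33 for knockout 2, and that of the uptake group is 0.24 and -0.06.

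Across all 28 members, 19 (67.9%) had the knockout arrays on opposite sides of the wild-type mean, against 61.8% of all genes. Knockout 1 held the highest level for 10 members and knockout 2 for 11, beside 4918 and 4127 of all 14395 genes. Knockout 1 was above the wild-type mean for 60.7% of members and 52.9% of all genes, and knockout 2 for 64.3% and 55.1%. Of 8 second probes of members that were well above background on at least 2 arrays, 5 had the same sign as the probe used and 3, for Hsd17b7, Nsdhl and Stard4, the opposite sign.

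Other genes of sterol handling were read from the same fit, and limma called 0 of 63 genes in 6 lists, with 0 at an unadjusted p under 0.05. Over all genes tested, 0.0417% were called, and 8.66% stood higher and 6.09% lower without overlap. Of 11 other SREBP2 targets tested, 2 stood higher and 1 lower without overlap, and the median difference was 0.10. Lpin1, a phosphatidate phosphatase, read -3.13 and -3.54 in wild type 1 and 2, -4.79 in knockout 1 and -3.55 in knockout 2, a difference of -0.84 (SE 0.55). Knockout 2 was level with wild type 2, and Lpin1 was not well above background on all 4 arrays. Among the 10 genes of the list that were, 0 stood lower without overlap. Of 12 genes of SREBP processing and sterol sensing, 1 stood higher and 1 lower, with a median of 0.02. These were Erlin1, an endoplasmic reticulum protein that takes part in sterol-driven degradation, at 0.38 (SE 0.28), and the ubiquitin ligase Rnf145 at -0.08. Rnf139, a sterol-responsive ubiquitin ligase, differed by 0.31 with overlap.

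Of 11 genes of the sterol receptor LXR and of sterol efflux, 1 stood higher and 3 lower, beside 8.66% and 6.09% of all genes. The median of the 11 was 0.10. It was 0.065 under normexp with quantile normalization and -0.12 under normexp with 75th percentile scaling. Abca1, which exports cholesterol to apolipoproteins, read -2.67 and -2.28 in wild type 1 and 2, -1.28 in knockout 1 and -2.24 in knockout 2, a difference of 0.71 (SE 0.43). Mylip, a ubiquitin ligase raised by LXR, read -1.45 and -1.01 in wild type 1 and 2, -2.72 in knockout 1 and -1.55 in knockout 2, a difference of -0.91 (SE 0.47). These LXR targets thus lay in opposite directions, and knockout 1 carried most of both. Pltp, the phospholipid transfer protein, differed by -0.65 (SE 0.41). Of 10 genes of the isoprenoid branches, 2 stood higher and 1 lower, with a median of 0.07. Fntb, a farnesyltransferase subunit, differed by -0.27, Pdss2, which makes the side chain of ubiquinone, by 0.21 and Ggps1, which makes geranylgeranyl diphosphate, by 0.06. Of 12 genes of sterol ester, lysosomal and membrane transport, 2 stood higher, with a median of 0.02. They were Osbpl9, an oxysterol-binding protein homologue, at 0.39 (SE 0.30), and the lysosomal membrane protein Lamp2 at 0.20, while Gramd1a, an endoplasmic reticulum sterol transfer protein, differed by -0.20 with overlap. Of 7 genes of oxysterol and sterol catabolism, 1 stood higher, with a median of 0.10. It was Ch25h, cholesterol 25-hydroxylase, at 0.43 (SE 0.40), beside Hsd3b7 at 0.20 and Cyp27a1 at -0.19, both bile acid enzymes, with overlap. Cyp27a1 (SE 0.64) was not well above background on all 4 arrays.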

How the data were processed

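Total RNA of mouse small intestine was labelled with Cy3 and read on one-colour arrays, 2 a genotype, grouped by the genotype in the labels. Agilent Feature Extraction 11.5.1.1 is the software named in the submitters' processing notes. The processed signal used here is, per the file headers, an intensity after background subtraction within the array. The deposited table of log2 values was used as an alternative: per array it tracked the scaled log2 signal (correlation 1.00 over 39408 probes, 100% within 0.01 after centring), and its column medians were 0.053, -0.095, -0.108 and 0.124.

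Spots flagged as feature outliers by the scanner software (91 to 129 an array) were left out, log2 signals were taken minus each array's 75th percentile, and spots of a probe were averaged. Probes were named by accession through the RefSeq table of GRCm38.p6: of 39429 probes, 28025 had 1 symbol and 11404 none. Probes well above background on at least 2 of 4 arrays were kept (24013), and the brightest probe of a symbol was used. Genotypes were compared with limma 3.58.1 in R 4.3.3 (lmFit, eBayes with an intensity trend), Benjamini-Hochberg adjusted over 14395 genes, with 0.05 as the threshold. The number of arrays limits the precision.

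The members and the other gene and marker lists were chosen with earlier results of these data known. Levels per array are given for members without overlap and for the 3 largest differences of each role group; other lists name up to 3 genes, first those without overlap, then by size of difference. Some genes of one list are not reported here. Normexp correction (offset 50) was run on the median spot signal in place of the mean signal. With slide as a fixed term 0 residual degrees of freedom remained and no slide correlation could be estimated, so knockout 1 minus wild type 2, which lay on 1 slide, is given in its place.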

Additional observations from a re-analysis of the deposited data

How the results depend on the processing

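Srebf2, Hmgcs1, Idi1, Fdps, Tm7sf2 and Insig1 kept their direction without each array in turn. For Srebf2, Hmgcs1, Idi1 and Insig1 this was fixed in advance, since their genotypes did not overlap. Over 11 other settings, 279 of 308 member differences kept their direction, 29 turned and 0 were called, while 11 members kept theirs throughout. All 29 turns came under normexp, quantile normalization, median scaling or the mean of a gene's probes. The other settings left the differences the same or nearly so, and could hardly turn them. They changed only the filter, the variance model or the block, or used the deposited table. The all-gene median difference was 0.04, and 0.08 under normexp with 75th percentile scaling and 0.10 under median scaling. The replicate number was not shown to pair arrays (correlation of same-numbered deviations 0.05): with a replicate block 32 genes were called in place of 6, and 0 members. Requiring all 4 arrays well above background called 0 genes. That filter leaves out the probes of the 6 called Cyp3a genes, which were not well above background in the knockout. Normexp with 75th percentile scaling called 13 genes. Without an array, 0 to 433 genes were called: 0 without wild type 1 or wild type 2, 12 without knockout 1 and 433 without knockout 2, and 0 to 1 members. The cause was not tested.

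The members' median of 0.11 was 0.048 within the shared slide, where that of all genes was 0.080, 0.048 under normexp with quantile normalization, -0.30 under normexp with 75th percentile scaling and 0.17 under median scaling, and 0.06 to 0.13 without an array. The shared-slide median was 0.21 under median scaling. Members whose genotypes did not overlap numbered 4, and 2 under normexp with quantile normalization (against 1251 higher and 971 lower of all genes), 11 under normexp with 75th percentile scaling (5 higher and 6 lower, against 1660 and 1611 of all genes), 7 under median scaling (6 and 1, against 1590 and 711), and 10 to 20 without an array, where 3 arrays overlap less often by construction and 43.5% to 72.3% of all genes did not overlap.

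Reversed differences were, under normexp with 75th percentile scaling, -0.53 for Ebp, -0.38 for Fdps, -0.45 for Hmgcs1, 0.42 for Hsd17b7, -0.36 for Idi1, -0.24 for Insig2, 0.41 for Lss, -0.51 for Msmo1, -0.48 for Mvk, -0.28 for Npc1l1, -0.62 for Pmvk, -0.33 for Sc5d, -0.54 for Scap, -0.52 for Sqle and -0.24 for Tm7sf2. Under normexp with quantile normalization they were 0.0097 for Fdft1, -0.055 for Pmvk, -0.018 for Scap and -0.0079 for Sqle. Under quantile normalization alone they were -0.029 for Ebp, 0.0091 for Hsd17b7, -0.072 for Pmvk, -0.017 for Scap and -5.0e-05 for Sqle. Median scaling gave 0.027 for Fdft1, 0.055 for Hsd17b7 and 0.054 for Stard4, and the mean of a gene's probes 0.11 for Hsd17b7 and 0.079 for Stard4.

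Leaving out an array turned the other members, with ranges of -0.026 to 0.28 for Acat2, -0.42 to 0.46 for Cyp51, -0.12 to 0.63 for Dhcr7, -0.091 to 0.39 for Ebp, -0.23 to 0.17 for Fdft1, -0.48 to 0.47 for Hsd17b7, -0.27 to 0.48 for Insig2, -0.50 to 0.37 for Lipa, -0.54 to 0.17 for Lss and -0.059 to 0.35 for Msmo1. They were -0.27 to 0.44 for Mvd, -0.15 to 0.39 for Mvk, -0.22 to 0.29 for Npc1, -0.27 to 0.84 for Npc1l1, -0.43 to 0.10 for Npc2, -0.031 to 0.25 for Nsdhl, -0.27 to 0.28 for Pmvk, -0.20 to 0.68 for Sc5d, -0.015 to 0.15 for Scap, -0.077 to 1.46 for Soat2, -0.27 to 0.41 for Sqle and -0.23 to 0.22 for Stard4.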
